A study of Mus musculus with 2 samples.

Results

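The NMDA receptor subunit genes Grin1, Grin2a, Grin2b, Grin2c, Grin2d and Grin3a were described in nuclei of the mouse hippocampus. These 6 genes were taken by symbol from the 32285 genes of the deposited count tables. Both libraries came from Stra8-cKO mice of 3 months, genotype Stra8L/- with Nestin-Cre, in which Cre recombinase is driven by the promoter of Nestin, a gene of neural progenitors. Single-nucleus RNA sequencing gave 1 library from male mice and 1 from female mice, prepared from dissected tissue with the 10x 3′ v3.1 chemistry. No library of another genotype was analysed here, so no value below measures an effect of Stra8. The number of animals behind a library is not given in the labels, and with 1 library per sex no test was possible. Sex, animals, dissection and library cannot be told apart. Intervals are 95% exact intervals and cover counting error only, since the UMIs (unique molecular identifiers, 1 for each captured RNA molecule) of 1 library share their tissue.

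NMDA receptors are glutamate-gated channels that open only when glutamate and a co-agonist, glycine or D-serine, are bound and the membrane is depolarised enough to lift a magnesium block. They pass calcium and start many forms of synaptic plasticity in the hippocampus. GluN1, encoded by Grin1, is present in every NMDA receptor. GluN2 subunits bind glutamate and set the kinetics: GluN2A, encoded by Grin2a, deactivates faster than GluN2B, encoded by Grin2b, and receptors with GluN2C or GluN2D are blocked less by magnesium. GluN3A, encoded by Grin3a, binds glycine and lowers calcium entry.

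All 6 genes lie on the minus strand of mm10. Grin1 spans chr2:25291181-25319187, Grin2a chr16:9567898-9995560 and Grin2b chr6:135713233-136173511. Grin2c spans chr11:115249169-115267243, Grin2d chr7:45831883-45878378 and Grin3a chr4:49661611-49845744. The spans run between 18.1 kb for Grin2c and 460.3 kb for Grin2b, and nuclear RNA of long genes is captured partly from introns, so levels of different genes are compared only per kilobase of gene span, and ratios of UMIs of different genes only across classes and libraries. Promoter sequence from RefSeq (GRCm38.p6) was matched for 3 of the 6 genes. The 250 bases before each of these starts are shown, for the genes described below as even among neurons (Grin1), high in astrocytes (Grin2c) and read mainly in interneurons (Grin2d). They are written 5′ to 3′ on the minus strand, at chr2:25319188-25319437, chr11:115267244-115267493 and chr7:45866682-45866931, with GC boxes in capitals.
Grin1: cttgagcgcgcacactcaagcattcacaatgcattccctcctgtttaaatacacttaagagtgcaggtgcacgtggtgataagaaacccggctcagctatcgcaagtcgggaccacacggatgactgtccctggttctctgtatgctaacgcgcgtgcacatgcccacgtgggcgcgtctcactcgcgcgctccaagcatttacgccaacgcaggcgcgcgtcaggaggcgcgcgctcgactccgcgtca
Grin2c: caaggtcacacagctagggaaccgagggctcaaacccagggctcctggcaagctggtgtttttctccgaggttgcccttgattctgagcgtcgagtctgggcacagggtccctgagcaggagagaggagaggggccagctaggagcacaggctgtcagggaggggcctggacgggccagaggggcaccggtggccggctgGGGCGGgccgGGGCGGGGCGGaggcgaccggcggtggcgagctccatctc
Grin2d: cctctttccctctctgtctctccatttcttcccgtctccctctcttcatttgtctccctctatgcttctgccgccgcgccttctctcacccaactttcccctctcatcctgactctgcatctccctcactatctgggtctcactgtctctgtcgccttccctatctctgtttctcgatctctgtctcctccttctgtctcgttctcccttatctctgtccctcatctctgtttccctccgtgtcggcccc
The GC box was searched as GGGCGG and CCGCCC on both strands. The Grin2c window held 3 boxes, of which the last pair overlap, and 68.8% of its bases were G or C. The Grin1 window held 0 boxes at 58.8% G or C, and the Grin2d window held 0 at 54.4%. A box was found in 32.7% of 32851 promoter windows of this length. The RefSeq start of Grin2d lies 11697 bases inside the span of the gene model named above.

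After filtering, 13747 of 16174 barcodes were kept in the male library and 16935 of 20150 in the female library. Their median depths were 4321 UMIs in the male library and 2644 UMIs in the female library. Classes named from marker genes took 88.5% of kept male nuclei and 66.96% of kept female nuclei. A class's marker list summed higher in that class than in any other in 37 of 42 class and library pairs. The same lists had named the classes, so this outcome was largely set in advance and is no independent check of the names. In CA1 the CA1 list summed to 9145 CPM (UMIs of the genes per 1000000 UMIs counted) in the male library and 11526 CPM in the female library, below the 10167 and 12001 CPM of Lamp5 interneurons, and the other 3 exceptions were layer 6 type and upper-layer cortical neurons. The targeted gene Stra8 had 3 UMIs among all male barcodes and 6 among all female barcodes. Xist was read at 1.16 CPM in the male library and 2054 CPM in the female library, and the Y-linked Eif2s3y at 164 and 0.586 CPM. There were 101 cell barcodes common to both libraries. Of 22 classes described, 14 held at least 50 nuclei in each library: 6 excitatory fields, 4 interneuron subtypes and 4 glial classes. Oligodendrocytes came mostly from different clusters in the libraries, with 2243 male and 178 female nuclei in one cluster and 105 male and 3411 female nuclei in the other.

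Free RNA from lysed neurons can enter droplets that hold a glial nucleus. A list of 7 neuronal genes, among them Snap25, Syt1, Camk2a and Slc17a7, was therefore summed in each class. In microglia the list summed to 3991 CPM in the male library and 2753 CPM in the female library. The sum in oligodendrocytes was 3892 and 2645 CPM, in astrocytes 4771 and 2773 CPM, and in oligodendrocyte precursors 2798 and 2287 CPM, male then female. All 7 genes were detected in each glial class, and the male sum was the higher in each. The list was not uniformly lower in glia. On the mean of classes, Camk2a was 1.74-fold and 1.60-fold higher in glia than in neurons, male then female. Nrgn was 2.91-fold and 2.76-fold and Slc17a7 1.77-fold and 1.34-fold higher, while the other 4 genes were 2-fold or more lower. Camk2a made up 2594 of the 4771 CPM of male astrocytes. The sum is thus not an amount of neuronal RNA, and its source in glia was not tested. Microglia, which were taken as the class that should lack neuronal receptors, are given below as the background of any share of nuclei with a UMI.

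Grin1, the obligatory subunit, was the gene whose level varied least among neurons. Across the 6 excitatory fields Grin1 lay between 277 and 368 CPM in the male library and between 311 and 416 CPM in the female library. Near-projecting neurons, a class marked by Tshz2 and Vwc2l, were lowest in both libraries. CA1 pyramidal neurons were highest among male nuclei and subiculum neurons among female nuclei. The 4 interneuron subtypes lay between 212 and 285 CPM in the male library and between 213 and 269 CPM in the female library. Glial classes lay between 75.4 and 91.1 CPM in the male library and between 42.8 and 65.7 CPM in the female library, below every neuronal class. In the order of mean levels, subiculum, CA1, CA3, CA2 and dentate gyrus granule neurons overlapped from one to the next in the range between the libraries, as did the 4 interneuron subtypes.

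**Figure D1:**
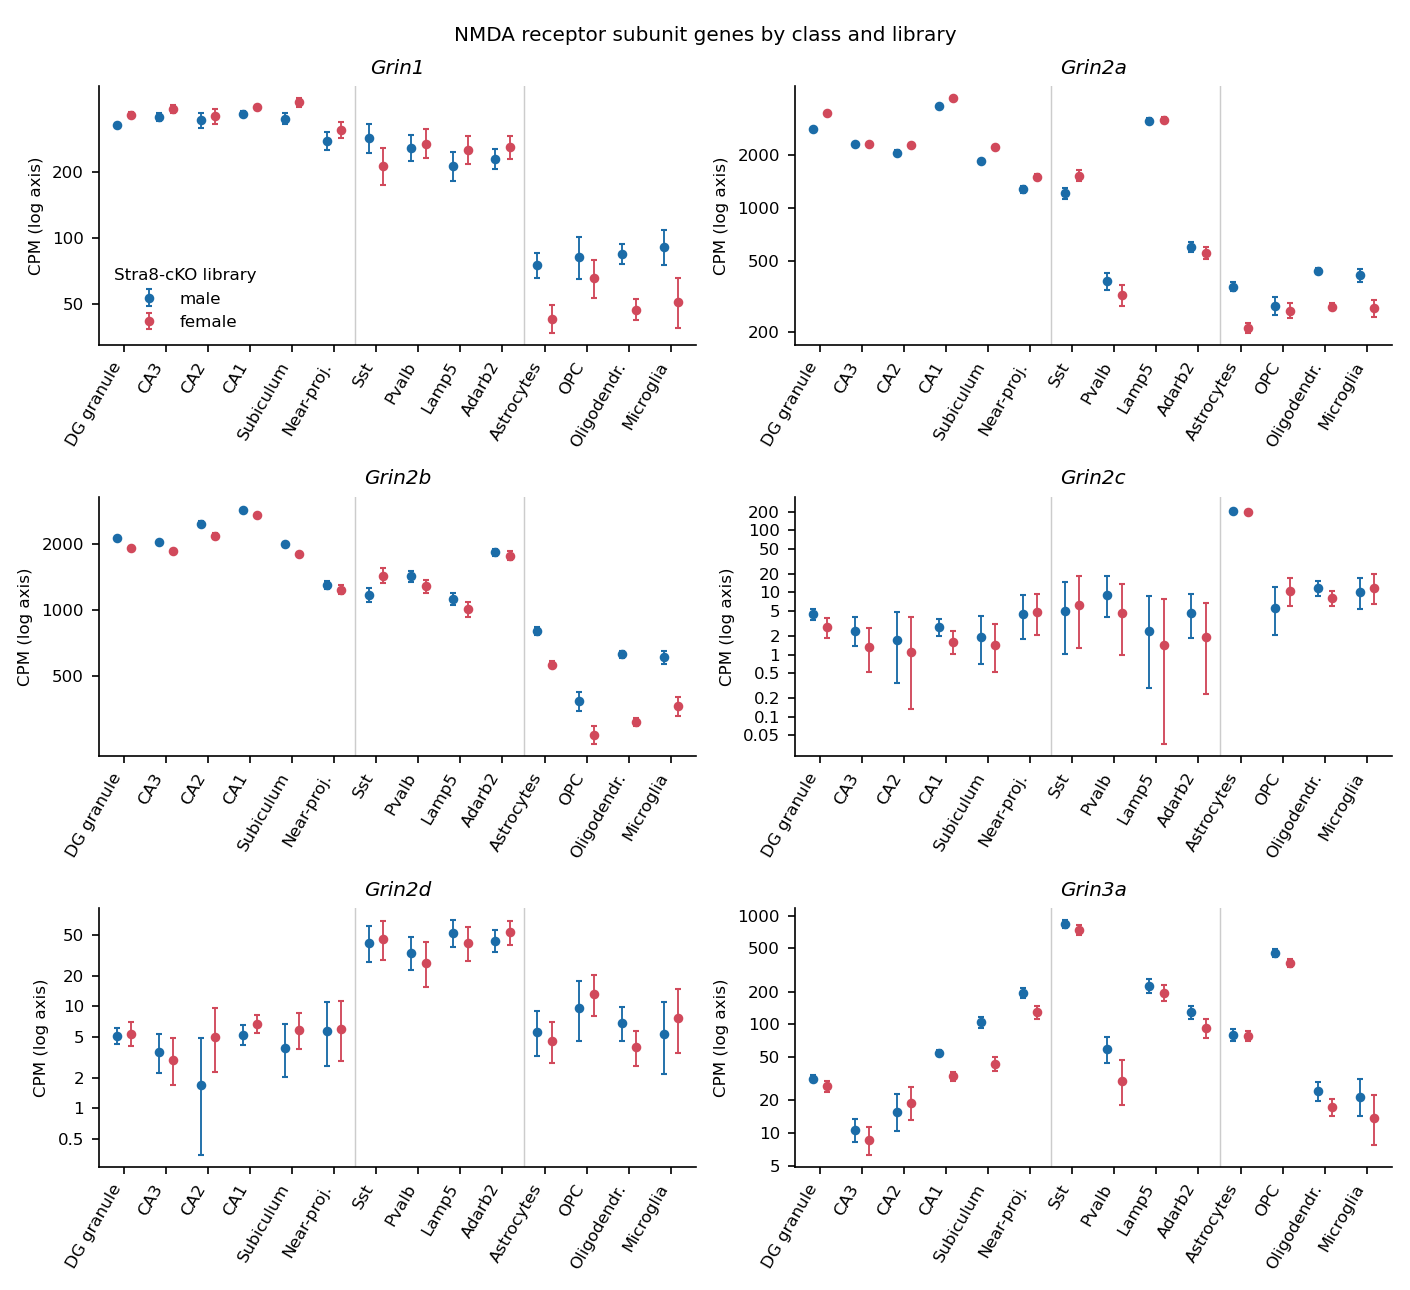
Level of each subunit gene as CPM (log axis, different in each panel) in 14 classes, male library left of female library in each pair, with exact Poisson 95% intervals of the UMI count; grey lines part excitatory fields, interneurons and glia. Grin2c is high in astrocytes (205 and 197 CPM), Grin2d in the 4 interneuron subtypes, and Grin3a in Sst interneurons and oligodendrocyte precursors (OPC), in both libraries.

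Grin2a, the subunit of fast receptors, had its highest level in CA1 and differed more between interneuron subtypes than between excitatory fields. CA1 pyramidal neurons had 3756 CPM in the male library and 4175 CPM in the female library. Lamp5 interneurons, which are neurogliaform or ivy cells, had 3126 and 3158 CPM, male then female, and dentate gyrus granule neurons had 2801 and 3432 CPM. CA3 had 2311 and 2307 CPM, CA2 had 2054 and 2276 CPM, and the subiculum had 1858 and 2226 CPM. Near-projecting neurons had the lowest level of the excitatory fields, 1280 and 1503 CPM. Among the other interneurons, Sst cells had 1212 and 1529 CPM, and Adarb2 cells (of Vip or Cck type) had 607 and 560 CPM. Pvalb cells had 387 CPM in the male library and 323 CPM in the female library. That Pvalb level was inside the glial range of the male library, 281 to 442 CPM, and above the glial range of the female library, 210 to 277 CPM. Grin2a thus spanned 2.93-fold in the male and 2.78-fold in the female excitatory fields, and 8.08-fold in the male and 9.78-fold in the female interneuron subtypes. In Pvalb cells Grin2a was 0.167 of the level in all other nuclei in the male library and 0.146 in the female library. In both libraries together, 5.5% of the genes tested were 2-fold or more lower in Pvalb cells. In Adarb2 cells it was 0.260 and 0.253 of the level in all other nuclei, beside 4.44% of genes as low.

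Grin2b, the subunit of slower receptors, was more even among interneurons. CA1 pyramidal neurons were again highest, at 2879 CPM in the male library and 2713 CPM in the female library. CA2 followed with 2484 and 2174 CPM, and dentate gyrus, CA3 and subiculum neurons, which overlapped in order, lay between 1999 and 2131 CPM in the male library and between 1803 and 1927 CPM in the female library. Adarb2 interneurons had 1833 and 1775 CPM and were the highest of the 4 subtypes. Lamp5 interneurons, near the top for Grin2a, had the lowest Grin2b of the neuronal classes with 50 nuclei in each library, 1120 CPM in the male library and 1007 CPM in the female library. The interneuron subtypes spanned 1.64-fold in the male library and 1.76-fold in the female library. Among glia, astrocytes had 802 and 562 CPM and oligodendrocyte precursors had 382 and 269 CPM. Those values stand beside the neuronal sums in the same glia given above, whose part in them was not tested.

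The ratio of Grin2a UMIs to Grin2b UMIs separated interneuron subtypes further than any pair of excitatory fields. Because capture of nuclear RNA depends on the gene, a ratio of 1 does not mean equal amounts of protein or of mature RNA, and the ratio is compared only across classes and libraries. Lamp5 interneurons had 2.79 Grin2a UMIs per Grin2b UMI in the male library and 3.14 in the female library. Sst interneurons had 1.03 and 1.06, Adarb2 interneurons 0.331 and 0.315, and Pvalb interneurons 0.271 and 0.251. The counts behind the Pvalb ratio were 335 over 1234 UMIs in the male library and 205 over 817 in the female library. The order of the 4 subtypes was the same in both libraries, with Adarb2 and Pvalb close together. With doublets kept and classes rebuilt the Lamp5 ratio was 1.82 in the male library and 1.35 in the female library, in 35 male and 24 female nuclei in place of 108 and 84. With a stricter nucleus filter and rebuilt classes the female Pvalb ratio was 0.110, in 20 nuclei in place of 60.

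**Figure D2:**
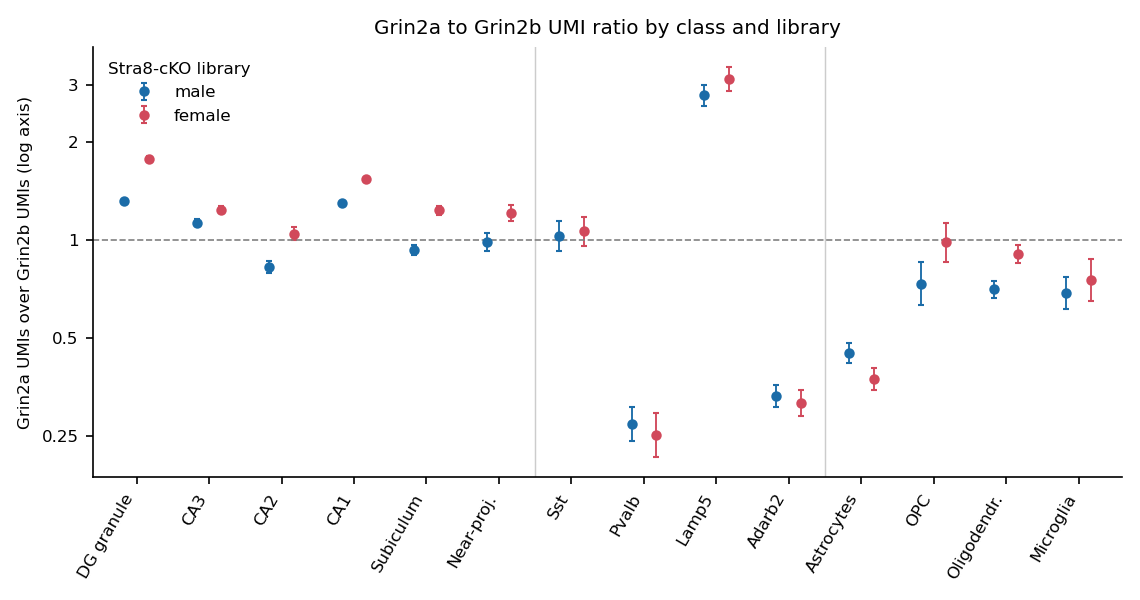
Grin2a UMIs over Grin2b UMIs (log axis) in 14 classes, male library left of female library, with exact conditional binomial 95% intervals and a dashed line at 1. Lamp5 interneurons lie at 2.79 and 3.14 and Pvalb interneurons at 0.271 and 0.251, while the male ratio is below the female ratio in all 6 excitatory fields.

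Sub-clusters within a subtype differed too. Lamp5 cells led by Vcan and Hapln1 had a ratio of 3.26 in the male library and 3.74 in the female library. Lamp5 cells led by Kit and Ndnf, a marker of neurogliaform cells, had 1.89 and 1.36. Among Adarb2 cells, those led by Vip (vasoactive intestinal peptide) had 0.285 and 0.188, and those led by Syt6 and Rgs12 had 0.151 and 0.212. Adarb2 cells with Slc17a8 (the vesicular glutamate transporter of some Cck cells) and Cnr1 (the cannabinoid receptor) among their leading genes had 0.562 in the male library and 0.713 in the female library. Both Lamp5 sub-clusters lay above 1 and the 3 Adarb2 sub-clusters below 1 in each library. These 5 sub-clusters held between 31 and 77 male nuclei and between 25 and 59 female nuclei, and they were made without the 6 subunit genes among the variable genes.

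**Figure D3:**
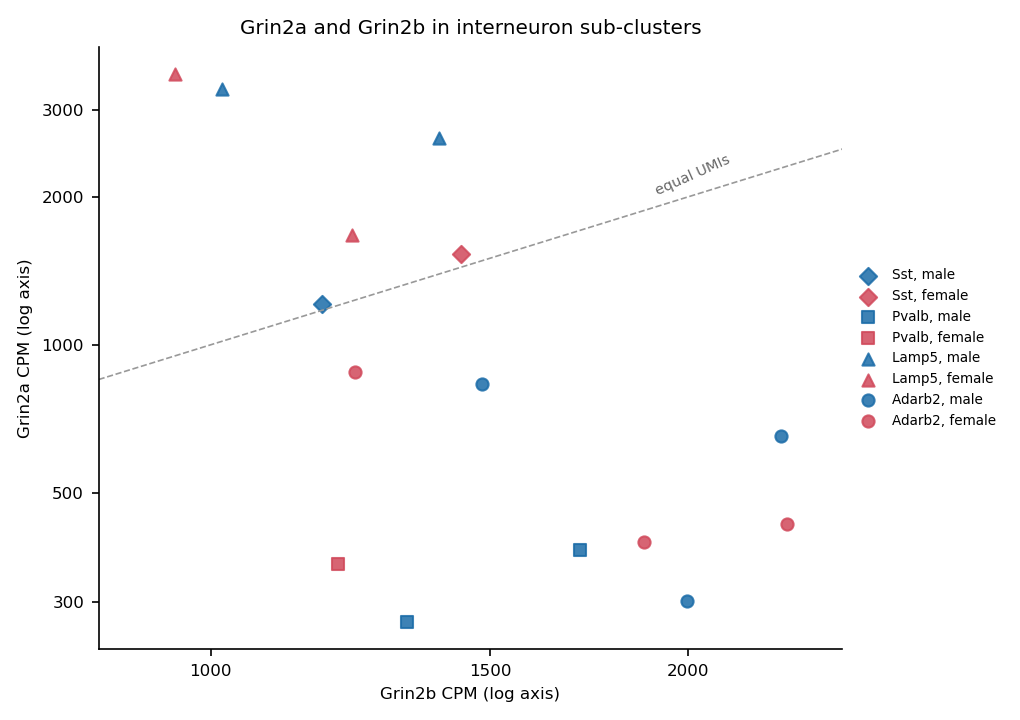
Grin2a CPM against Grin2b CPM (both log axes) in named interneuron sub-clusters, 1 point per sub-cluster and library, male in blue and female in red, with shapes for the subtypes and a dashed line of equal UMIs. Lamp5 points lie above the line and Adarb2 and Pvalb points below it.

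In excitatory neurons the Grin2a to Grin2b ratio was lower in the male library than in the female library in 6 of 6 fields. Dentate gyrus granule neurons had 1.31 in the male library and 1.78 in the female library, the widest gap. CA1 had 1.30 and 1.54, CA3 1.13 and 1.24, and CA2 0.827 and 1.05. The subiculum had 0.930 and 1.23, and near-projecting neurons had 0.985 and 1.21. The intervals of the libraries did not overlap in any of the 6 fields. Male over female, the ratio differed by factors between 0.738 and 0.912, and among the interneuron subtypes by factors between 0.890 and 1.08, where intervals overlapped in all 4. The subtypes held fewer UMIs. The Lamp5 factor of 0.890 rested on 940 male and 705 female Grin2b UMIs, and the CA3 factor of 0.912 on 12653 and 9981. The male ratio was the lower in 2 of 4 subtypes and in 3 of 4 glial classes. The difference between fields and subtypes was not tested. Of 15 named excitatory sub-clusters present in both libraries, 15 had the lower ratio in the male library, 13 of them with intervals apart. Of 7 named interneuron sub-clusters present in both, 5 had the lower ratio in the male library. Intervals were apart in 1 of these, and also in the Vip-led sub-cluster, where the male ratio was higher. CA3, CA2, subiculum and near-projecting neurons are each a single sub-cluster, so their values repeat those above. The granule and CA1 sub-clusters split the same nuclei as their fields. Granule neurons were spread unevenly over sub-clusters in the libraries, with 994 male and 132 female nuclei in one and 882 and 34 in another. The one led by Slc4a4 and Rasgrf2 held 682 and 709, and the one led by Gm6999 and Trpc6 held 896 and 590. In the 5 dentate gyrus sub-clusters the male ratio lay between 1.17 and 1.52 and the female ratio between 1.46 and 1.84. In the 3 CA1 sub-clusters it lay between 1.18 and 1.40 in the male library and between 1.46 and 1.60 in the female library. When every nucleus was thinned to 1000 UMIs, the female CA2 ratio was 0.935.

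In glia the ratio was below 1 in both libraries. Astrocytes had 0.449 in the male library and 0.374 in the female library, microglia 0.687 and 0.754, oligodendrocytes 0.705 and 0.904, and oligodendrocyte precursors 0.734 and 0.983. Over all kept nuclei of a library it was 1.17 in the male library and 1.33 in the female library. These glial ratios depended on the classes. With doublets kept and classes rebuilt, astrocytes had 1.03 and 1.11 and microglia had 1.05 and 1.30, male then female, and the rebuilt astrocyte class held 1597 male and 2002 female nuclei in place of 948 and 1344.

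Grin2c, which encodes GluN2C, had its highest level in astrocytes. Astrocytes had 622 UMIs of Grin2c in the male library and 869 UMIs in the female library, which is 205 CPM (189 to 222) and 197 CPM (184 to 210). The other 13 classes lay between 1.69 and 11.7 CPM in the male library and between 1.11 and 11.98 CPM in the female library. Astrocytes were thus 47.3-fold above all other nuclei in the male library and 29.8-fold above them in the female library, and 16.8% of genes tested were 2-fold or more higher in astrocytes in both. A Grin2c UMI was found in 43.7% of male astrocytes (40.5 to 46.9) and 41.7% of female astrocytes (39.1 to 44.4). In microglia the share was 1.52% in the male library and 2.01% in the female library. Depth differed, with medians of 2750 and 2923 UMIs in astrocytes and 1541.5 and 1613 UMIs in microglia. At an equal 1000 UMIs per nucleus the shares were 18.8% and 18.1% of astrocytes and 1.19% and 1.73% of microglia.

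Per kilobase of gene span, Grin2c in astrocytes had 11.3 CPM per kb in the male library and 10.9 in the female library. Grin1 there had 2.69 and 1.53 CPM per kb, and Grin2b had 1.74 and 1.22. Grin2c was thus the highest of the 6 genes per length in this class. Before division by span it was not. Grin2b at 802 and 562 CPM and Grin2a at 360 and 210 CPM lay above Grin2c at 205 and 197 CPM, male then female. Astrocytes held 2.72 Grin2c UMIs per Grin1 UMI in the male library and 4.60 in the female library, and in no other described class did this ratio exceed 0.405. Where classes were rebuilt the astrocyte level of Grin2c was lower, at 107 and 97.9 CPM under the stricter filter and at 105 and 133 CPM with doublets kept, male then female.

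Outside the 14 classes, thalamic or habenular neurons, with 154 nuclei in the female library and 0 in the male library, had the highest neuronal level of Grin2c. It was 40.0 CPM from 81 UMIs, with a UMI in 32.5% of nuclei and in 6.49% at 1000 UMIs each. Grin2c was 2.55-fold and Grin2d 3.05-fold above the other nuclei of that library in this class, beside 7.19% of genes 2-fold or more higher.

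Grin2d, whose receptors have the slowest deactivation, was read at a low level and mainly in interneurons. Adarb2 cells had 44.0 CPM in the male library and 53.1 CPM in the female library, from 67 and 56 UMIs. Lamp5 cells had 52.4 and 41.4 CPM, Sst cells 41.9 and 45.5 CPM, and Pvalb cells 33.5 and 26.8 CPM. The first 3 overlapped in order, and Pvalb cells were lowest of the 4 in both libraries. Excitatory fields lay between 1.69 and 5.74 CPM in the male library and between 2.98 and 6.76 CPM in the female library, and no field reached an interneuron subtype. On the mean of classes, interneurons were 10.2-fold above excitatory fields in the male library and 7.81-fold in the female library.

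Between 23.96% and 31.4% of male interneurons of a subtype, and between 20% and 42.5% of female ones, had a Grin2d UMI, against 0.886% of male and 1.29% of female microglia. At 1000 UMIs per nucleus these shares were between 3.12% and 6.48% in male subtypes and between 1.20% and 11.3% in female subtypes, against 0.663% and 0.943% of microglia. The thinned female Lamp5 share of 1.20% came from 1 of 83 nuclei and was not separable from the microglial share at this depth. A call past 2-fold needed 50 UMIs over both libraries, which Lamp5 and Adarb2 cells reached. Lamp5 cells were 6.68-fold and 4.11-fold above all other nuclei, beside 7.32% of genes as high, and Adarb2 cells were 5.78-fold and 5.41-fold above, beside 5.85%. Grin2d overlaps Kdelr1 on the opposite strand, which had 1949 male and 1742 female UMIs, and whether counting used strand is not given in the sources used here.

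**Figure D4:**
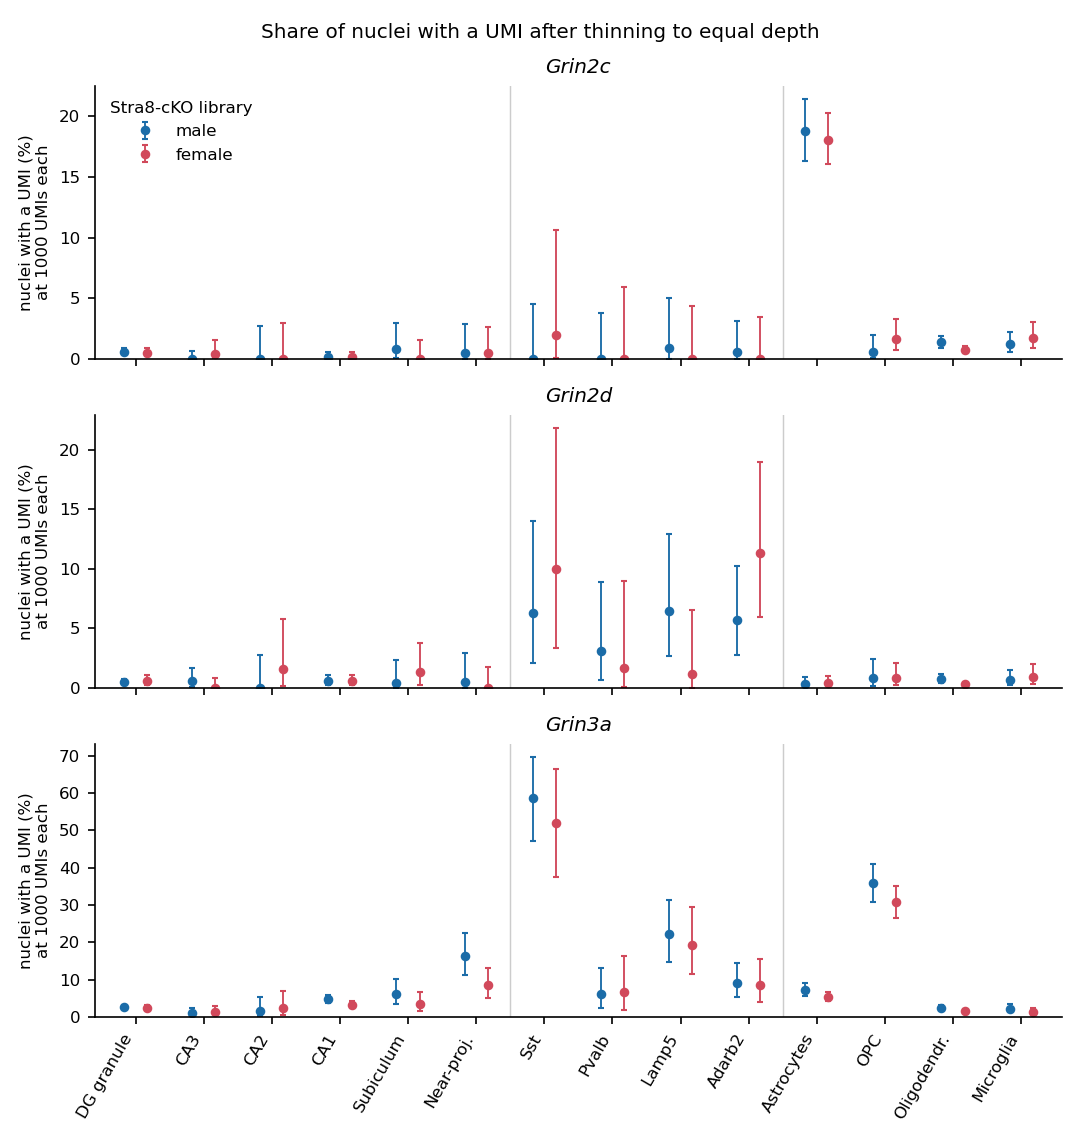
Share of nuclei with at least 1 UMI of Grin2c, Grin2d and Grin3a after each nucleus was thinned to 1000 UMIs, in 14 classes, male library left of female library, with exact Clopper-Pearson 95% intervals. At equal depth 18.8% and 18.1% of astrocytes had a Grin2c UMI, and 58.8% and 52% of Sst interneurons had a Grin3a UMI.

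Grin3a marked Sst interneurons and oligodendrocyte precursors. Sst cells, which include the dendrite-targeting interneurons, had 840 CPM in the male library (769 to 917) and 732 CPM in the female library (658 to 813). They were 14.1-fold above all other nuclei in the male library and 11.7-fold in the female library, beside 7.66% of genes 2-fold or more higher in Sst cells. A Grin3a UMI was found in 87.5% of male and 90% of female Sst nuclei, against 3.16% of male and 2.30% of female microglia, with median depths of 7243.5 and 8576 UMIs in Sst cells. At 1000 UMIs the shares were 58.8% and 52% of Sst cells and 2.25% and 1.26% of microglia. Grin3a was also among the 10 leading genes of the Sst sub-cluster, although it was not used to cluster the nuclei.

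Oligodendrocyte precursors, the dividing glia that give rise to oligodendrocytes, had 453 CPM of Grin3a in the male library and 370 CPM in the female library, and oligodendrocytes had 24.4 and 17.4 CPM. Precursors were 7.50-fold above all other nuclei in the male library and 6.07-fold in the female library, beside 8.94% of genes as high. A UMI was found in 66.0% of male and 61.6% of female precursors, and in 35.8% and 30.7% at 1000 UMIs. Per kilobase of gene span, precursors had 2.46 CPM of Grin3a in the male library and 2.01 in the female library, below the 2.92 and 2.34 CPM per kb of Grin1. Sst cells had 4.56 and 3.98 CPM per kb of Grin3a, also below Grin1, which had 10.2 and 7.61. Before division by span the order was the opposite in both classes. Precursors had 453 and 370 CPM of Grin3a against 81.8 and 65.7 CPM of Grin1. Sst cells had 840 and 732 CPM against 285 and 213 CPM. With doublets kept and classes rebuilt, the precursors' Grin3a level was 266 CPM in the male library and 255 CPM in the female library.

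Among the remaining classes, Lamp5 interneurons had 226 and 196 CPM, near-projecting neurons 195 and 130 CPM, Adarb2 interneurons 129 and 92.8 CPM and astrocytes 80.7 and 78.2 CPM of Grin3a, male then female. Lamp5 cells were 3.54-fold and 2.99-fold above all other nuclei. Within Adarb2 cells, those led by Vip had 279 and 214 CPM, and those led by Syt6 and Rgs12 had 50.2 and 45.4 CPM. Pvalb cells had 58.9 and 29.9 CPM. Among excitatory fields Grin3a spanned 18.3-fold in the male library and 15.1-fold in the female library, the widest span of the 6 genes. CA3 was lowest at 10.7 and 8.58 CPM, CA2 had 15.7 and 18.9 CPM, dentate gyrus granule neurons 31.6 and 27.1 CPM, and CA1 54.5 and 33.3 CPM. The subiculum had 105 CPM in the male library and 43.5 CPM in the female library. Hilar mossy cells, with 40 nuclei in each library, had 3 UMIs and 2 UMIs. Ppp3r2 lies inside Grin3a on the same strand and had 44 male and 60 female UMIs in all.

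CA1 was not uniform for Grin3a. The CA1 sub-cluster led by Stac, Hunk and Man1a had 31.5 CPM in the male library and 18.0 CPM in the female library. The sub-cluster led by Tenm3, Plch1 and Dach1 had 82.5 CPM in the male library and 64.5 CPM in the female library. It was the higher of the pair in both libraries, and the male level was the higher in each.

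Between the libraries, 64 pairs of a subunit gene and a class held at least 50 UMIs, and 15 of them (23.4%) were past 1.5-fold, each higher in the male library. Over all genes in the same 14 classes, 15% of gene and class pairs were past 1.5-fold either way. These too leaned toward the male library. By class, between 8.45% and 13.7% of genes were at least 1.5-fold higher in the male library and between 2.23% and 6.42% at least 1.5-fold lower. With a stricter nucleus filter and rebuilt classes, 5 of 57 pairs were past it. The classes' medians over all genes were shifted by between 0.06 and 0.11 log2 units toward the male library.

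Glia held 9 of the 15. In oligodendrocytes 4 of 6 genes were past 1.5-fold, beside 18.6% of all genes there. Among them Grin2d, at 1.72 from 29 male and 27 female UMIs, had an interval that included 1 (0.984 to 3.02). Oligodendrocyte Grin2b had 627 CPM in the male library and 307 CPM in the female library, a ratio of 2.04 (1.93 to 2.17), and Grin1 had 84.9 and 47.3 CPM, a ratio of 1.80 (1.54 to 2.09). In the cluster that held most male oligodendrocytes, male nuclei had 634 CPM of Grin2b and female nuclei 494 CPM, and in the other cluster 474 and 297 CPM. In microglia 3 of 3 genes were past 1.5-fold, beside 18.9% of genes, and in astrocytes 2 of 5, beside 17.8%. In astrocytes Grin2a had 360 and 210 CPM, while Grin2c, the gene of highest level per length there, had 205 and 197 CPM, a ratio of 1.04 (0.937 to 1.16). The summed level of neuronal genes in these glia was also higher in the male library, as given above, and its part in these ratios was not tested. With the stricter filter and rebuilt classes the log2 ratio of oligodendrocytes was -0.21 for Grin1, -0.38 for Grin2a and -0.030 for Grin2b.

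Grin1, Grin2a and Grin2b were within 1.5-fold between the libraries in each excitatory field. Grin2a was between 0.816 and 1.00 of the female level in male excitatory fields, with the interval below 1 in 5 of 6, and Grin1 was between 0.843 and 0.959, with the interval below 1 in 4 of 6. Grin2b was between 1.05 and 1.14, with the interval above 1 in 5 of 6, but with the median of all genes subtracted its log2 ratio was -0.0040 in CA1 and -0.0038 in near-projecting neurons and positive in the other 4. Grin3a was past 1.5-fold in the subiculum, at 2.41-fold (2.00 to 2.90) from 324 male and 186 female UMIs, where 16.4% of genes were past it. It was also past it in CA1, at 1.64-fold (1.46 to 1.84) beside 11.6% of genes, and in near-projecting neurons, at 1.51-fold (1.26 to 1.80) beside 12.5%. After thinning to 1000 UMIs, 6.28% of male and 3.48% of female subiculum nuclei had a Grin3a UMI, and 4.77% of male and 3.29% of female CA1 nuclei. The CA2 ratio ran the other way, at 0.831, with an interval of 0.485 to 1.41. Grin2c was past 1.5-fold in CA1 and in dentate gyrus granule neurons, where 15.4% of genes were, at levels between 1.59 and 4.45 CPM that lie below the microglial level. Granule neurons of the libraries were spread unevenly over 5 sub-clusters, whose part in the Grin2c ratio was not tested. In that led by Slc4a4 and Rasgrf2 Grin2c had 2.79 CPM in the male library and 2.63 CPM in the female library, from 12 and 14 UMIs. In the sub-cluster led by Ddn and C1ql2 it had 5.47 and 4.74 CPM, from 37 and 3 UMIs. It had 3.86 and 2.38 CPM in that led by Gm6999 and Trpc6, from 19 and 9 UMIs. The sub-cluster led by Oprm1 and Stxbp6 had 7.14 and 2.98 CPM, from 11 and 2 UMIs. That led by Glis3 and Trhr had 4.25 and 4.84 CPM, from 23 and 1 UMIs. Among interneurons only Grin3a in Pvalb cells was past 1.5-fold, at 1.97 (1.14 to 3.53) from 51 male and 19 female UMIs, beside 15.7% of genes, and after thinning its log2 ratio was -0.086.

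**Figure D5:**
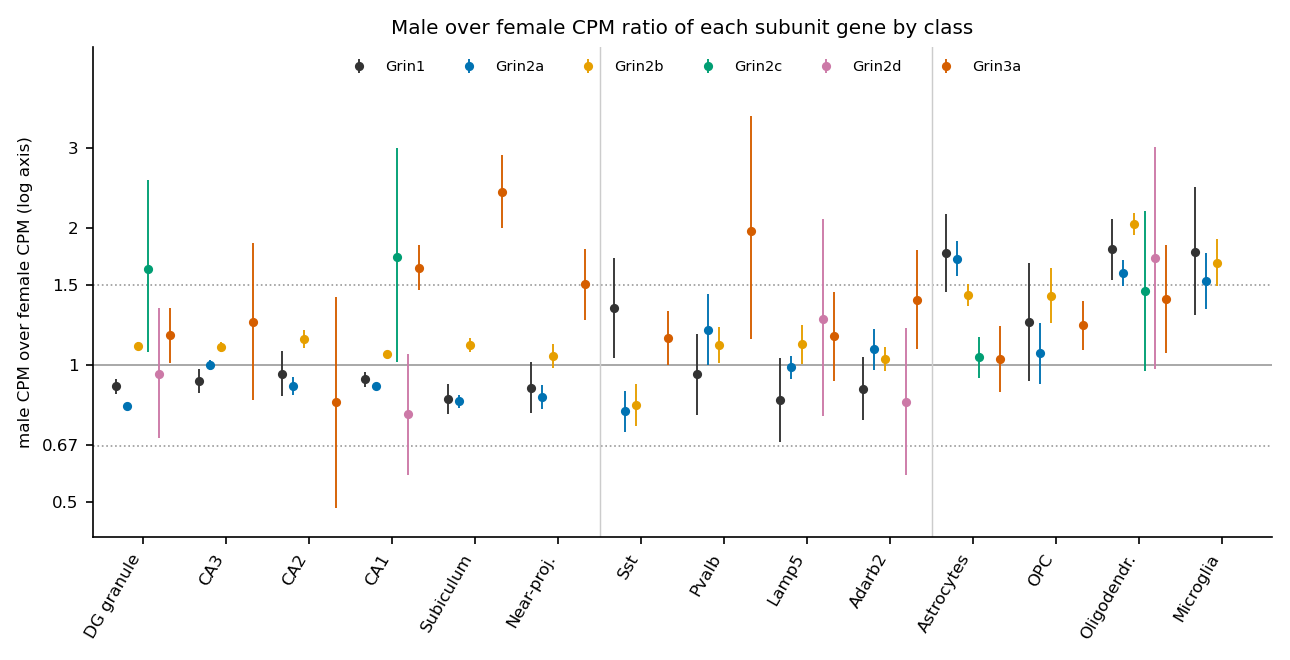
Male CPM over female CPM (log axis) for each subunit gene in each class with at least 50 UMIs of it, with exact conditional binomial 95% intervals of the ratio, a solid line at 1 and dotted lines at 1.5-fold either way. Grin3a lies at 2.41 in the subiculum, and Grin1, Grin2a and Grin2b lie at or above 1.43 in astrocytes, oligodendrocytes and microglia.

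Likeness was measured as Pearson's r of log2(CPM + 5) over 28 points, the 14 classes in each of the 2 libraries, among 10532 genes. Points of 1 library share its preparation and depth, so r is a description. Grin1 was most like Atp2b3, a plasma membrane calcium pump (r = 0.97), Ksr2 and Syt1. The genes most like Grin2a were Mlip (r = 0.94), Sidt1 and Gm12064. Grin2b was most like Gm14330 (r = 0.96), which lies inside Grin2b on the opposite strand, followed by Pigk and Dgkg. Grin2c was most like Slco1c1, a thyroid hormone transporter (r = 0.97), Gm6145 and Slc7a2, and Grin2d like 4930488N15Rik (r = 0.95), Kcnmb2 and Gm14204. Grin3a had the weakest best match, H2afy2 (r = 0.85), before Ptpn4 and Wnk3. Among the subunits themselves r was 0.92 for Grin1 with Grin2b, 0.83 for Grin1 with Grin2a and 0.61 for Grin2d with Grin3a, and it was -0.69 for Grin1 with Grin2c.

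Genes that act with the receptor were set beside it. On the mean of classes, 2 of 6 subunit genes were at least 2-fold higher in interneurons than in excitatory fields in both libraries, Grin2d and Grin3a, where Grin3a was 4.57-fold and 6.04-fold higher, male then female, and 0 of 6 were 2-fold lower. Over 10533 genes, 7.93% were as high and 6.69% as low. The Grin3a mean did not hold for each subtype. Sst cells had 840 and 732 CPM, while Pvalb cells, at 58.9 and 29.9 CPM, lay below the excitatory mean of 68.7 and 43.5 CPM. Of 10 postsynaptic scaffolds 0 passed either way, and the list's median log2 ratio was -0.34 in the male library and -0.31 in the female library, beside 0.07 and 0.06 over all genes. Dlg4, which encodes PSD-95 that tethers GluN2 tails, was at 0.681 and 0.729 of the excitatory level in interneurons. Of 13 kinases, phosphatases and effectors, 5 were lower (Camk2a, Camk2b, Ptk2b, Ppp3ca and Rasgrf1) and 2 were higher, with a list median of -0.64 and -0.41. Ptk2b, the kinase Pyk2, was at 0.183 of the excitatory level in male and 0.124 in female interneurons. Rasgrf2, a Ras exchange factor activated by calcium, was 5.49-fold and 5.02-fold higher in interneurons, and Nos1, the neuronal nitric oxide synthase, 2.44-fold and 3.24-fold. Of 3 receptor partners, Neto1, Ephb2 and Lrp8, 0 passed, and their median log2 ratio was 0.57 and 0.52.

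In glia against neurons, 1 of 6 subunit genes was at least 2-fold higher in both libraries, Grin2c, and 4 of 6 were lower, Grin1, Grin2a, Grin2b and Grin2d, beside 26.4% of all genes as high and 11.6% as low. For Grin2d this rests on the interneurons in the neuronal mean, at 42.9 and 41.7 CPM, male then female. Glia had 6.83 and 7.33 CPM of it, above the 4.21 and 5.34 CPM of excitatory fields. Of 8 genes for the supply and removal of co-agonists, 7 reached 20 CPM in some class, and 4 of those were higher in glia and 0 lower. Phgdh, the first enzyme of serine synthesis, was 6.04-fold and 6.83-fold higher in glia, and Slc6a9, the glycine transporter GlyT1, 3.18-fold and 3.98-fold. Slc7a10, a transporter of D-serine and glycine, and Gldc, of the glycine cleavage system, were highest in astrocytes, as Grin2c was. In male and female astrocytes, Slc7a10 was at 187 and 213 CPM, and Gldc at 277 and 207 CPM. Srr, the serine racemase that makes D-serine, was at 0.854 and 1.09 of the neuronal level in glia. The further subunit gene Grin3b did not reach 20 CPM in any class. In the median of excitatory fields, 0 of the 4 subunit genes with enough UMIs there were past 1.5-fold between the libraries, nor were any of 10 scaffolds, 11 kinases, phosphatases and effectors, 3 partners and 2 co-agonist genes tested, beside 104 genes higher and 21 lower of 6885 tested.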

How the data were processed

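Nuclear RNA of 2 hippocampal libraries was sequenced with the 10x 3′ v3.1 kit on Chromium X with a target of 10000 nuclei each, per the labels' protocols. The authors deposited raw UMI counts per gene and barcode from Cell Ranger 7.0.1, per the file headers, and mm10 and bcl2fastq 2.20.0.422 are named in the submitters' processing notes. Whether introns or strand entered the counting is not given in the sources used here, and both bear on long and on overlapping genes. The files hold 0 unused sample columns.

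Barcodes under 500 genes or above 5% mitochondrial UMIs were left out. Scrublet in scanpy 1.11.5 called 9.57% of male and, by the top share of its scores because its threshold had failed, 7.51% of female barcodes as doublets. These were removed, with 6 of 31 clusters in which over 40% of nuclei had been called. Clustering (3000 variable genes without the subunit genes, 40 components, Leiden resolution 1, leidenalg 0.10.2) was followed by sub-clustering of excitatory and interneuron clusters. Clusters were named from lists of 8 markers, and rebuilt names may differ from the study's. Values of some sub-clusters are not reported here. The members and all lists were chosen with earlier results of these data known, and details of the naming score were chosen after seeing the data.

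UMIs were summed per class and library and given as CPM of the class total. Log2 ratios used CPM + 5. A call needed 50 UMIs over both libraries, past 1.5-fold between libraries or past 2-fold between classes, and no test was made, with 1 library per group. All 6 genes were named in each class of at least 50 nuclei over both libraries, and likeness was ranked by Pearson's r among genes at 20 CPM or more in a class in both libraries. For shares at equal depth each nucleus was thinned to 1000 UMIs, leaving out between 0 and 68 male and between 0 and 155 female nuclei of a class. Rate and ratio estimates were checked on simulated data. Alternatives were Leiden resolution 0.5, a filter of 1000 genes and 1% mitochondrial UMIs with classes kept or rebuilt, doublets kept, thinning, totals without mitochondrial genes and Malat1, a pseudocount of 1, centring on the class median and no UMI minimum. Python 3.11.15, numpy 2.4.6, scipy 1.17.1 and pandas 2.3.3 were used.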

Additional observations from a re-analysis of the deposited data

Results flagged for a closer look

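The male over female ratio of 3 genes pointed one way in some classes and the other way in others, with intervals that excluded 1. These differences between classes were not tested, since there was 1 library per sex. For Grin1 the ratio was 1.80 in oligodendrocytes, the highest, and 0.843 in subiculum neurons, the lowest of the classes whose interval excluded 1. For Grin2a it was 1.72 in astrocytes and 0.793 in Sst interneurons. For Grin2b it was 2.04 in oligodendrocytes and 0.817 in Sst interneurons. The high ends were all in glia, where the neuronal list also summed higher in the male library, and its part in them was not tested.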

How the results depend on the processing

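Of 2453 recomputed values for 428 results, 1690 lay inside the counting interval of the reported value and 740 outside it. A further 23 were counted as reversed, most of these in glia. Only a Grin2a to Grin2b ratio whose interval excluded 1, or a log2 ratio past 1.5-fold, could be counted so. Changes of sign in smaller log2 ratios are not among the 23, and levels and shares could not be. No paired analysis was possible because each sex has 1 library. With the stricter filter and rebuilt classes, the Grin2a to Grin2b ratio, male then female, was 1.13 and 1.33 in astrocytes, 1.23 and 1.57 in oligodendrocytes and 1.08 and 1.41 in microglia, 1.14 in male precursors and 0.110 in female Pvalb cells. Log2 ratios of male over female were then -0.21, -0.38 and -0.030 for Grin1, Grin2a and Grin2b in oligodendrocytes, and -0.44 and -0.29 for Grin1 and Grin2a in microglia. With doublets kept the ratio of Grin2a to Grin2b was 1.03 and 1.11 in astrocytes, 1.05 and 1.30 in microglia, 1.11 in male precursors, 0.935 in female CA2, 1.82 and 1.35 in Lamp5 and 0.389 and 0.372 in Adarb2 cells, and the microglial log2 ratios were -0.14 for Grin1 and -0.083 for Grin2a. Thinning gave 3.20 and 2.39 in Lamp5, 0.228 and 0.223 in Adarb2 cells, 0.935 in female CA2 and a Grin3a log2 ratio of -0.086 in Pvalb cells. At Leiden resolution 0.5 it was 1.04 in male precursors. The cause of these changes was not tested.

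Grin2c in astrocytes, male then female, was 253 and 274 CPM with the stricter filter and kept classes, 107 and 97.9 CPM with rebuilt classes, 105 and 133 CPM with doublets kept and 222 and 215 CPM without mitochondrial genes and Malat1 in the total. Grin3a in Sst cells was 751 CPM at resolution 0.5 in the male library and 962 and 840.0 CPM after thinning. Grin3a in precursors was 352 and 303 CPM at resolution 0.5, 355 and 318 CPM with the stricter filter and rebuilt classes, 266 and 255 CPM with doublets kept, and 435 CPM in the female library with the stricter filter and kept classes. Pairs past 1.5-fold numbered 5 of 57 with the stricter filter and rebuilt classes and between 10 and 15 under the other settings. Without a UMI minimum 122270 of 287538 gene and class pairs were past it, against 18965 of 126261. With the stricter filter, rebuilt classes held no Adarb2 class and kept classes too few female microglia, so those values are not given. Depth limits Grin2c outside astrocytes and Grin2d outside interneurons, where a class held between 0 and 118 UMIs of the gene in a library.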

Other observations

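Thalamic or habenular neurons of the female library had a Grin2a to Grin2b ratio of 0.695 and a Grin2d level of 30.1 CPM. Layer 6 type neurons, with 150 male and 47 female nuclei, had ratios of 0.648 and 0.838 and 108 and 106 CPM of Grin3a.

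Sub-clusters that the markers left unnamed also carried Grin3a. An interneuron sub-cluster led by Olfm3, Alkal2 and Rtkn2 had 415 CPM in 60 male nuclei and 282 CPM in 39 female nuclei. An unnamed excitatory sub-cluster led by Col5a2 and Gpc6 had 118 CPM in 164 male nuclei and 74.8 CPM in 73 female nuclei, above each of the 3 CA1 sub-clusters in its library. These nuclei are outside the named classes and enter none of the values of Sst or CA1 cells.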
